A study of Mus musculus with 5 samples.

Results

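The genes described here encode the proteins of the cytosolic ribosome. They were chosen by name: rows of the count table whose Entrez identifier maps to a mouse symbol beginning with Rpl or Rps, without the Rps6k kinases (10 rows) and without pseudogenes (36 rows). This gave 89 of 27179 genes, of which 46 encode proteins of the large subunit, 31 encode proteins of the small subunit and 11 are paralogues or retrocopies of those genes. The remaining gene, Rps19bp1, encodes a nucleolar partner of Rps19 that is not itself a ribosomal protein. Of the 89, 88 passed the filter on low counts, and Rpl10l, a retrocopy of Rpl10 known from testis, had 0 counts in all 5 libraries.

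Total RNA of ear skin from C57BL/6 (B6) mice was sequenced in 2 libraries of Cd1d knockout animals (KO, titled Cd1d -/-) and 3 control libraries. The control titles read Cd1d +/- while their genotype tag reads WT, so these libraries are called controls. CD1d presents lipid antigens to natural killer T cells, and the series asked what its loss changes in the skin transcriptome. Sex, age and treatment were not used here. Nothing in the labels says that the libraries are separate mice, so p-values measure the spread between these 5 libraries, which may be partly technical.

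Total counts were 54596686 and 45270805 in the KO libraries, against 79160005, 73692964 and 32353957 in the controls. Cd1d1, the targeted gene (chromosome 3), had 61 and 48 counts in KO, against 557, 757 and 182 in controls, and was lower in KO (log2 fold change -2.67, SE 0.288, edgeR quasi-likelihood adjusted p = 0.0152). All 6 keratinocyte and all 6 fibroblast markers were detected in every library. Their summed levels, in CPM (counts scaled to library size after TMM normalisation), were 48519 to 51305 in KO against 35071 to 44011 in controls for keratinocytes, and 26505 to 26838 in KO against 25627 to 33093 in controls for fibroblasts. Of the 6 keratinocyte markers, 4 had a positive and 2 a negative log2 fold change (median 0.10) and 0 passed by edgeR (1 at an unadjusted p under 0.05, 1 by DESeq2 and 1 by limma voom). The most abundant was Lor, a cornified envelope protein, with 23496 and 17628 CPM in KO, against 10373, 9652 and 15133 CPM in controls. KO replicate 1 stood apart in hair shaft and inner root sheath markers, with a sum of 574 CPM against 11.0 to 20.4 CPM in the other libraries. The adipocyte sum was 975 to 1115 CPM in KO against 558 to 930 CPM in controls, the leukocyte sum 808 to 896 CPM in KO against 700 to 743 CPM in controls, and the endothelial sum 105 to 110 CPM in KO against 129 to 141 CPM in controls. The cartilage sum was 206 to 244 CPM in KO against 253 to 322 CPM in controls, with all 3 tested markers negative and Matn1 at 0 in both KO libraries and in 2 of 3 controls. The part of these cell types in the results on ribosomal protein genes was not tested.

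The ribosome is built from a large and a small subunit. Each is a scaffold of ribosomal RNA covered by many different proteins, most of them needed in equal amounts. Most of these proteins are encoded by a single active gene beside many silent processed copies. Their mRNAs are short, very abundant, and begin with an oligopyrimidine tract (the TOP motif) through which mTORC1 sets how strongly they are translated. In skin, proliferating basal keratinocytes and hair matrix cells are known for high ribosome production.

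Ribosomal protein mRNAs made up a larger share of the KO libraries. The 89 genes took 12.80% and 12.04% of all counts in KO, against 9.36%, 9.47% and 9.14% in controls. Both KO libraries lay above every control library, and the means were 12.4% ± 0.538 in KO (SD, n = 2) and 9.32% ± 0.169 in controls (SD, n = 3), a ratio of 1.33. Large subunit genes took 7.05% of counts in KO and 5.29% in controls, and small subunit genes took 5.23% in KO and 3.92% in controls. The balance between the subunits was close in all libraries: the ratio of large to small subunit counts was 1.36 and 1.34 in KO, against 1.34, 1.32 and 1.39 in controls, so the groups overlapped. In bulk tissue, more cells with active ribosome production and more of these mRNAs per cell cannot be told apart. These shares carry no adjustment for transcript length, and fold changes followed length across the whole table (Spearman's rho -0.57 over 15809 genes). Whether length plays a part in the shares was not tested.

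**Figure D1:**
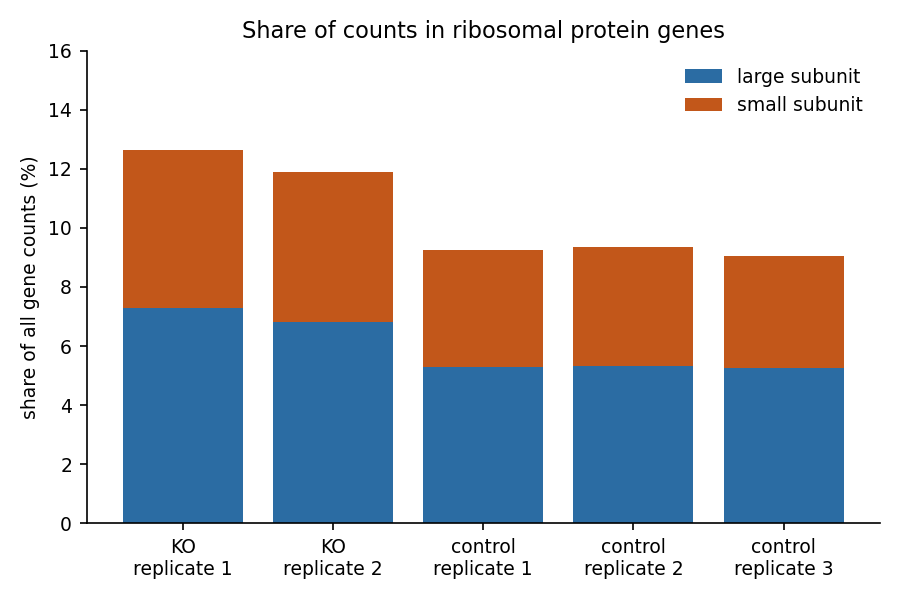
Share of all gene counts (percent, vertical axis) taken by large subunit (blue) and small subunit (orange) ribosomal protein genes in each of the 5 libraries, KO libraries on the left. Both KO bars stand above all 3 control bars, while the split between the subunits is similar in every library.

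Gene by gene, 39 of the 88 tested genes were higher in KO, 1 was lower and 48 did not pass (edgeR quasi-likelihood test, Benjamini-Hochberg adjusted p under 0.05 over 17472 genes). Across all tested genes 3.76% passed, 2.71% as higher and 1.05% as lower. The fold changes of the 39 genes ran from 1.38 to 2.11, with adjusted p from 0.0152 to 0.0498. Of the 48 genes that did not pass, 47 had a positive log2 fold change, up to 0.67. In 77 of the 88 genes both KO libraries exceeded all 3 controls, where 19.9% of all tested genes did, and in 1 gene both lay below all controls (20% of all tested genes). The median log2 fold change was 0.52, against -0.02 for all tested genes. These values carry no adjustment for transcript length, which fold changes followed across the whole table. With per-library trends on the length and GC content of the longest coding transcript removed, the median was 0.13 and 12 of the genes were higher and 1 lower (2.16% of all genes higher, 0.607% lower). With length alone removed, 0 were higher by edgeR (29 at an unadjusted p under 0.05; no other tool was run with these offsets) and 1 was lower (0.0127% of all genes higher, 0.019% lower). The values given gene by gene are those without offsets. KO replicate 1 was above KO replicate 2 in 69 of the 88 genes, and their median log2 distance above the control mean was 0.55 for the first KO library and 0.46 for the second.

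**Figure D2:**
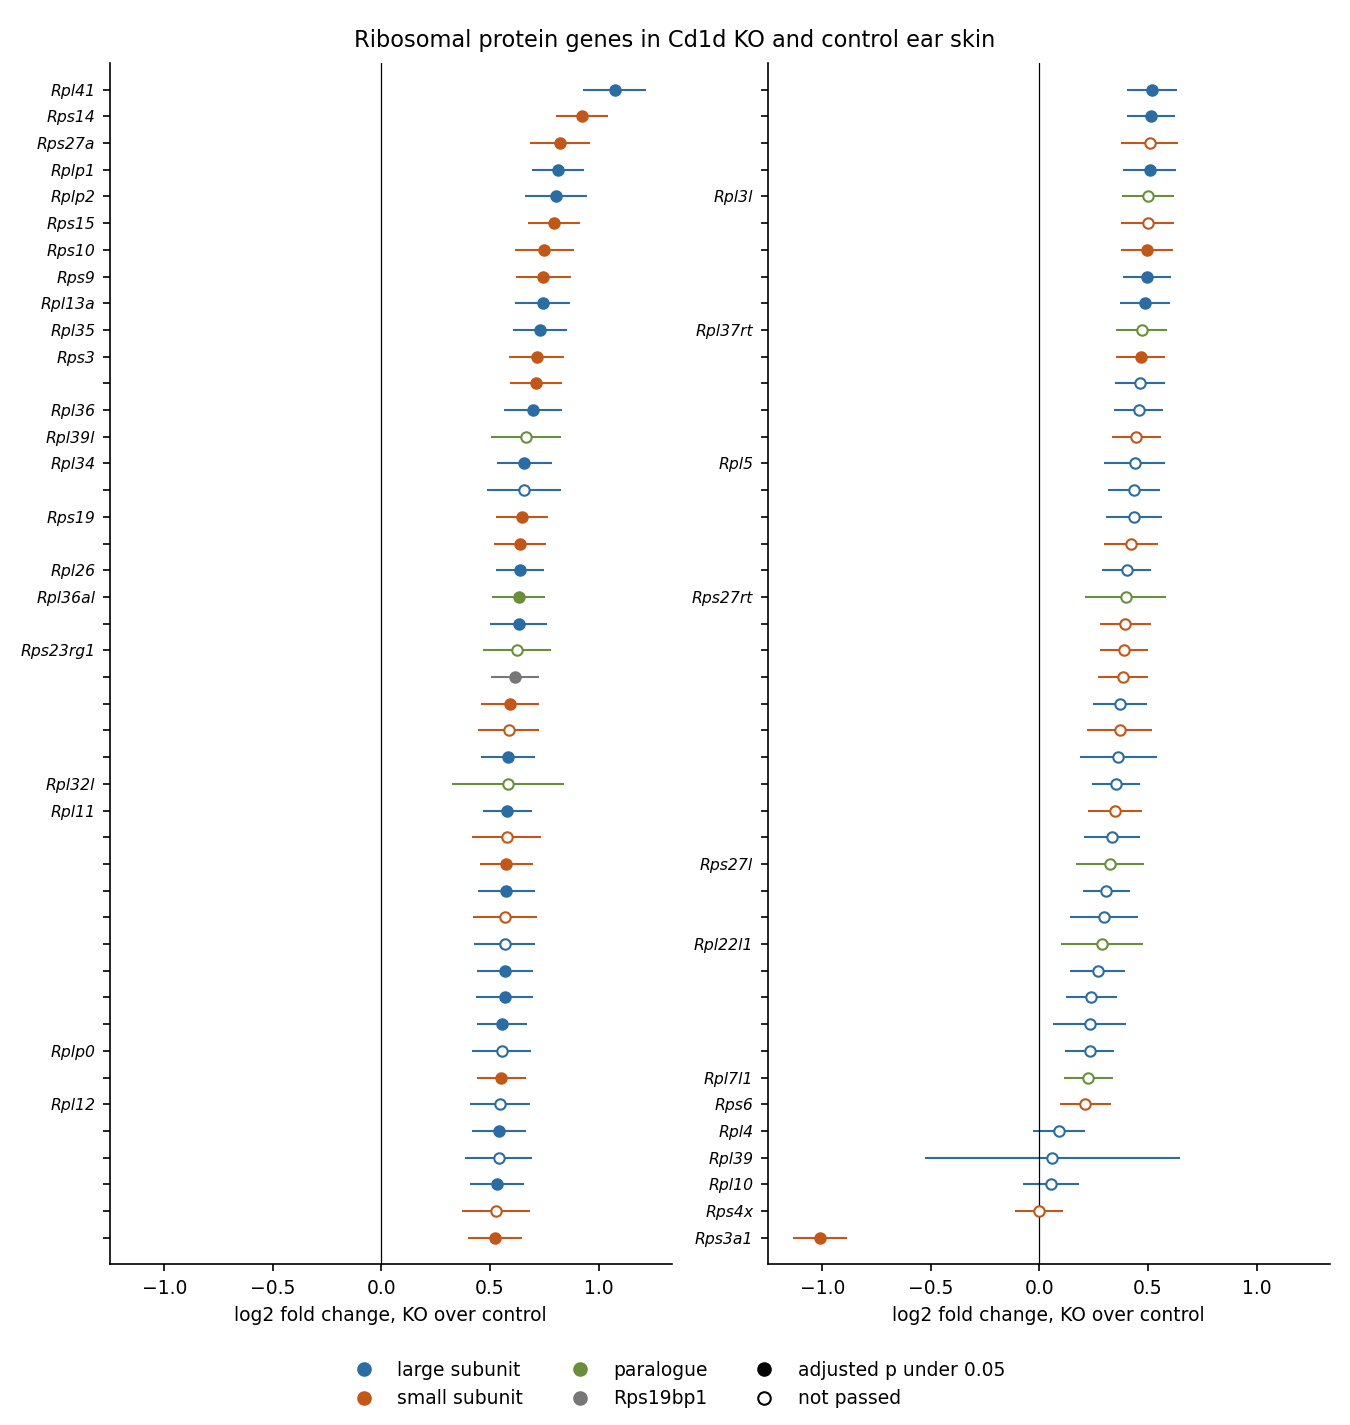
Log2 fold change of KO over control (horizontal axis) for each of the 88 tested genes, ordered by size over 2 panels, with bars of 1 standard error and with names for the genes chosen by rule. Filled points have an adjusted p under 0.05: 39 lie to the right of zero and 1, Rps3a1, to the left.

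These calls depended on single libraries. Without KO replicate 1, 0 of the 88 genes passed as higher or lower (59 at an unadjusted p under 0.05) and 1 gene passed in the whole table. Without control replicate 1, 0 genes passed anywhere (74 ribosomal protein genes at an unadjusted p under 0.05), and without KO replicate 2, 4 ribosomal protein genes were higher and 1 lower (0.667% of all genes higher, 0.0386% lower). Leaving out control replicate 2 gave 61 higher and 1 lower (4.81% of all genes higher, 2.99% lower), and leaving out control replicate 3 gave 63 higher and 1 lower (10.6% of all genes higher, 8.25% lower). The median log2 fold change stayed between 0.45 and 0.55 in these 5 fits. DESeq2 called 66 of the genes higher and 1 lower, where it called 6.31% of all genes higher and 4.19% lower. Limma voom called 73 higher and 1 lower, where it called 15.4% of all genes higher and 12.6% lower.

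Members of both subunits and of every structural region were among those that rose. In the large subunit 22 of 46 genes were higher, 24 did not pass, and the median log2 fold change was 0.52 (range 0.05 to 1.07). In the small subunit 15 of 31 were higher, 1 was lower, 15 did not pass, and the median was 0.53. Within the small subunit, 10 of 14 proteins of the head rose (median 0.60), as did 5 of 17 proteins of the body and platform, where 1 fell (median 0.51). At the mouth of the tunnel through which the new chain leaves the large subunit, 5 of 9 rose (median 0.55). Of all tested genes, 2.71% were higher and 1.05% lower. With length and GC offsets by the longest transcript, 2 of 14 head genes and 4 of 17 body and platform genes were higher (medians 0.13 and 0.06). By the shortest transcript, a fit chosen after seeing the data, 8 and 6 were higher (medians 0.34 and 0.27). Of all genes 2.16% and 4.08% were higher in these fits. Differences between these regions were not tested.

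The largest rise belonged to Rpl41 (Entrez 67945, chromosome 10), whose product is a very short basic peptide at the contact between the subunits. It had 6223 and 4936 CPM in KO, against 2367, 2580 and 3005 CPM in controls, a log2 fold change of 1.07 (SE 0.146, edgeR adjusted p = 0.0159). The lower KO library was thus well above the highest control. Rpl41 passed in 17 of 21 alternative fits, with log2 fold changes between 0.52 and 1.23. With length offsets alone the log2 fold change was 0.56, and Rpl41 did not pass (edgeR adjusted p = 0.161). It did not pass when control replicate 1 was left out (adjusted p = 0.101) or when KO replicate 1 was (adjusted p = 0.336). Rpl41 has near-identical copies in the genome, and the sources used here do not state how shared reads were counted. Per kilobase of its longest annotated transcript, Rpl41 stood at 9586 CPM in KO and 4554 CPM in controls, close to the 9276 CPM in KO and 5277 CPM in controls of Rplp1.

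Rplp1 and Rplp2 are the acidic proteins of the stalk, the flexible arm that recruits elongation factors to the ribosome. Rplp1 had 4632 and 4625 CPM in KO, against 2565, 2473 and 2861 CPM in controls (log2 fold change 0.81, SE 0.118, adjusted p = 0.0171). Rplp2 had 1945 and 1487 CPM in KO, against 1082, 954 and 912 CPM in controls (0.80, SE 0.142, adjusted p = 0.0221). In both genes the KO values lay above all control values, and in Rplp2 the 2 KO libraries differed more from each other than in Rplp1. The stalk base proteins Rplp0 and Rpl12 did not pass. Rplp0, often used as a reference gene in quantitative PCR, had 6981 and 7584 CPM in KO, against 4415, 4748 and 5720 CPM in controls (0.55, SE 0.137, adjusted p = 0.0535). Rpl12 had 1823 and 1656 CPM in KO, against 1019, 1195 and 1360 CPM in controls (0.55, adjusted p = 0.0574). The KO and control values did not overlap in either gene.

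Rpl11 and Rpl5 join the 5S ribosomal RNA before entering the large subunit, and free copies of this particle bind Mdm2 and so stabilise p53. Rpl11 had 2124 and 1991 CPM in KO, against 1326, 1442 and 1361 CPM in controls, and was higher (0.58, SE 0.113, adjusted p = 0.0264). Rpl5 had 2357 and 2163 CPM in KO, against 1430, 1926 and 1645 CPM in controls, and did not pass (0.44, SE 0.141, adjusted p = 0.104). Both KO libraries lay above all controls in each gene.

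Other large rises in the large subunit were those of Rpl13a, Rpl35, Rpl36, Rpl34 and Rpl26. Rpl13a, known in human cells as part of an interferon-induced complex that silences translation of inflammatory mRNAs, averaged 3384 ± 187 CPM in KO (SD, n = 2) and 2022 ± 212 CPM in controls (SD, n = 3), a log2 fold change of 0.74 (adjusted p = 0.0207). Rpl35 and Rpl26 sit at the rim of the exit tunnel. Rpl35 averaged 1612 ± 211 CPM in KO and 971 ± 54.6 CPM in controls (0.73), and Rpl26 averaged 1371 ± 31.8 CPM in KO and 881 ± 22.8 CPM in controls (0.64). Rpl36 had a log2 fold change of 0.70 and Rpl34 of 0.66 (both adjusted p = 0.0258).

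In the small subunit the largest rise was that of Rps14, a protein of the platform near the exit of the mRNA channel. Rps14 had 6501 and 6323 CPM in KO, against 3134, 3360 and 3651 CPM in controls (0.92, SE 0.119, adjusted p = 0.0152). It made up 11.3% and 11.8% of small subunit counts in KO, against 8.47%, 8.67% and 9.82% in controls, so its share of the set was higher in both KO libraries too. Rps27a is made as a fusion to ubiquitin and is thus also a source of ubiquitin. It had 2517 and 2416 CPM in KO, against 1203, 1604 and 1378 CPM in controls (0.82, SE 0.137, adjusted p = 0.0203). Of the head proteins, Rps15, which reaches toward the decoding centre, averaged 2669 ± 282 CPM in KO and 1538 ± 50.5 CPM in controls (0.80), and Rps10 averaged 1215 ± 112 CPM in KO and 722 ± 94.2 CPM in controls (0.75).

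Rps9 and Rps3, which line the entry of the mRNA channel, rose by 0.75 and 0.71 on the log2 scale. Rps19, the gene most often mutated in human Diamond-Blackfan anaemia, rose by 0.65. Adjusted p of these 3 genes ran from 0.0203 to 0.0236, and in all 3 the KO libraries lay above every control.

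**Figure D3:**
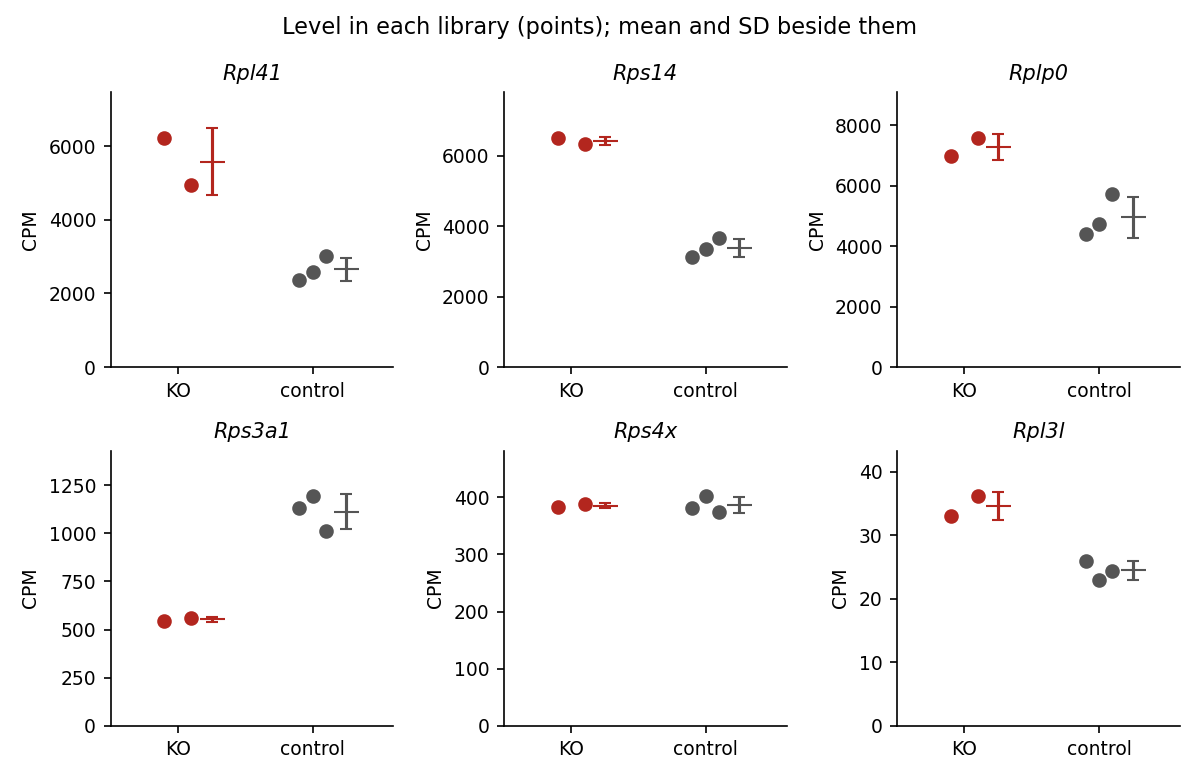
CPM (vertical axis, starting at zero) of 6 genes in each library, KO on the left in red and control on the right in grey, with the mean and SD beside the points. Rpl41, Rps14, Rplp0 and Rpl3l lie higher in both KO libraries, Rps3a1 lies lower (552 CPM on average in KO, 1112 CPM in controls) and Rps4x overlaps.

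Rps3a1 went against the rest. It encodes a protein of the small subunit platform close to the exit of the mRNA channel (Entrez 20091, chr3:86137940-86142668 on GRCm38). It had 542 and 562 CPM in KO, against 1131, 1192 and 1014 CPM in controls, a log2 fold change of -1.01 (SE 0.123, edgeR adjusted p = 0.0152). Both KO libraries were far below the lowest control. Its share of small subunit counts was 0.944% and 1.05% in KO, against 3.06%, 3.08% and 2.73% in controls, a ratio of 2.97 between the control and KO means. No other small subunit gene had a log2 fold change below -0.00. The fall passed in 19 of 21 alternative fits, with log2 fold changes between -1.40 and -0.96. It did not pass without control replicate 1 (adjusted p = 0.0970) or without KO replicate 1 (adjusted p = 0.336). Rps3a1 also has near-identical copies, and the counting of shared reads was not given.

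Rps3a1 lies 853 kb from Cd1d1 on chromosome 3 and was the only ribosomal protein gene within 1 Mb of it. Among the 25 other tested genes in that window, 1 passed, Kirrel, a cell adhesion protein of the nephrin family, named after its value was seen, with a log2 fold change of -0.56 (adjusted p = 0.0367), and the median was -0.09. Snord73a, a small nucleolar RNA (snoRNA) gene inside Rps3a1, had 12 and 9 counts in KO, against 19, 35 and 8 in controls, and did not pass (adjusted p = 0.656). Its counts were too low to show whether it followed its host. The part of position in the fall of Rps3a1 was not tested.

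At the other end, several genes differed little between the groups. Rps4x, an X-linked protein of the small subunit body, had 383 and 388 CPM in KO, against 382, 402 and 374 CPM in controls (log2 fold change -0.00, SE 0.111, adjusted p = 0.998). Rpl10, which completes the large subunit beside the peptidyl transferase centre, had 776 and 732 CPM in KO, against 741, 803 and 638 CPM in controls (0.05, SE 0.129, adjusted p = 0.859). In both genes the KO values fell among the control values. Rpl4, whose loop narrows the exit tunnel, had 992 and 1156 CPM in KO, against 984, 994 and 1048 CPM in controls (0.09, SE 0.119). Rpl39, which lines the tunnel, had only 10 and 8 counts in KO, against 19, 14 and 4 in controls, too few to read a change (0.06, SE 0.588).

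Rps6, the classic substrate of the S6 kinases downstream of mTORC1, had 1213 and 1144 CPM in KO, against 989, 1096 and 967 CPM in controls (0.21, SE 0.117, adjusted p = 0.318). Both KO values lay above the control values, by less than in the median member. Singled out after the values were seen, the 4 genes on the X chromosome were Rpl10 (0.05), Rps4x (-0.00), Rpl39 (0.06) and Rpl36a (0.44). The counts of Rpl39 were too few to read a change. None of the 4 passed, where 48 of the 88 tested genes did not. The other tested genes lie on autosomes, and all 89 are spread over 19 chromosomes.

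The paralogues were far less abundant and took 0.134% of counts in KO and 0.110% in controls. Rpl36al, an autosomal retrocopy of the X-linked Rpl36a, was the one that passed: it had 525 and 526 CPM in KO, against 359, 359 and 300 CPM in controls (0.63, SE 0.122, adjusted p = 0.0258; 0.44 for Rpl36a). Rpl3l replaces Rpl3 in skeletal and heart muscle. It had 33.0 and 36.1 CPM in KO, against 26.0, 23.0 and 24.4 CPM in controls (0.50, SE 0.121, adjusted p = 0.0501), while Rpl3 had a log2 fold change of 0.31 and did not pass. Skeletal muscle markers stood beside Rpl3l, with sums of 3759 to 4389 CPM in KO against 2966 to 3203 CPM in controls, and 1 of the 5, Mylpf (a fast muscle myosin light chain), was higher (0.60). The part of muscle in the Rpl3l value was not tested.

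Rpl39l, best known from testis, had 15.2 and 12.3 CPM in KO, against 8.59, 9.76 and 7.62 CPM in controls (0.67, SE 0.161, adjusted p = 0.0501). Rps23rg1, a retrocopy of Rps23, had 28.8 and 33.5 CPM in KO, against 17.5, 19.3 and 24.2 CPM in controls (0.62, adjusted p = 0.0557). Both missed the threshold although KO and control values did not overlap. Rps27l and Rpl22l1 had smaller log2 fold changes than the genes they resemble: 0.32 for Rps27l and 0.59 for Rps27, 0.29 for Rpl22l1 and 0.57 for Rpl22, differences that were not tested. Rps27l is a p53 target in human cells. The remaining values were 0.58 for Rpl32l, 0.47 for Rpl37rt, 0.40 for Rps27rt and 0.22 for Rpl7l1, a nucleolar relative of Rpl7, and none of these passed. Reads of Rpl32l, Rpl37rt, Rps27rt and Rps23rg1 cannot be separated with certainty from those of the parent genes. Rps19bp1, outside the ribosome itself, was higher (46.3 and 45.9 CPM in KO, against 30.6, 29.6 and 30.1 CPM in controls, log2 fold change 0.62, adjusted p = 0.0231).

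Fau and Rack1, which the naming rule does not reach, also encode ribosomal proteins, and both genes were higher. Fau, which encodes small subunit protein eS30 fused to a ubiquitin-like domain, had a log2 fold change of 0.75 (adjusted p = 0.0203), beside Rack1, a signalling scaffold on the head of the small subunit (0.65, adjusted p = 0.0207). Each had KO values above all control values.

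Promoter sequences show what these genes share apart from the counts. RefSeq windows (GRCm38.p6, 250 bases before to 50 after the annotated start) were available for 69 of the 89 genes. A tract of at least 8 pyrimidines starting with C, on the coding strand within 50 bases of the start, was present in 55 of them (79.7%), against 32.0% of 27025 genes. The letters CCGGAAG, read on either strand (CTTCCGG on the other) and resembling the site of ETS family factors, were present in 26 (37.7%), against 9.93% of all genes. The tract was found in 26 of 29 genes that rose and in 29 of 38 that did not pass, and CCGGAAG in 12 of 29 and 13 of 38. The sequences below run from 100 bases before to 30 bases after the start, with both kinds of match in capitals. The first 4 are genes that rose, chosen after their values and sequences were seen as clear examples of the tract (Rps18, a head protein, had a log2 fold change of 0.55), followed by Rpl41 with the largest rise, by Rps3a1, and by 2 genes with the smallest differences.

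Rps10, chr17:27635215-27635344, minus strand: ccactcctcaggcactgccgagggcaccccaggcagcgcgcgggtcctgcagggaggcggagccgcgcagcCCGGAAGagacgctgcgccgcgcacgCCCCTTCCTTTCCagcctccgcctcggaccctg
Rps18, chr17:33955636-33955765, minus strand: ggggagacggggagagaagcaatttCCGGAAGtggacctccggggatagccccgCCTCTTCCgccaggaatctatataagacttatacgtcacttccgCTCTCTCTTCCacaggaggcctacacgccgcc
Rpl35, chr2:39005102-39005231, minus strand: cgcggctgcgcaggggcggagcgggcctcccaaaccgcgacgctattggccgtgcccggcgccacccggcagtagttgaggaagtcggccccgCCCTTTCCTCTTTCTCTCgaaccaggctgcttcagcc
Rplp2, chr7:141447551-141447680, plus strand: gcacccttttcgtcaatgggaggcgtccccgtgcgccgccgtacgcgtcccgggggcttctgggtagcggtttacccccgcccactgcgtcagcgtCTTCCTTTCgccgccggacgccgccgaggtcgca
Rpl41, chr10:128549139-128549268, minus strand: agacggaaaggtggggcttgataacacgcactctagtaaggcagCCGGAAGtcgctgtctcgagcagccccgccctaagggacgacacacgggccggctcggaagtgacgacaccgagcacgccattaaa
Rps3a1, chr3:86142639-86142768, minus strand: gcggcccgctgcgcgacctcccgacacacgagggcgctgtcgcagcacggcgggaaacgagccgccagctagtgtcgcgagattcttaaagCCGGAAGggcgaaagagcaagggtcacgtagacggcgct
Rps4x, chrX:102189362-102189491, minus strand: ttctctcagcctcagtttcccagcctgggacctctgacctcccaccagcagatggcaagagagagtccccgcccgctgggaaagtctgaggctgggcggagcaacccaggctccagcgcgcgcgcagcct
Rpl10, chrX:74270716-74270845, plus strand: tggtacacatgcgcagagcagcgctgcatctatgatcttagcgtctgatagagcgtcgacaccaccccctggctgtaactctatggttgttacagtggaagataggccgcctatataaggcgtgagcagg

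Rps10, Rps18, Rpl35 and Rplp2 carry the tract around the annotated start, and Rps10 and Rps18 also hold CCGGAAG. In this window Rpl41 and Rps3a1, the genes with the largest rise and the only fall, both hold CCGGAAG and no tract, and Rps4x and Rpl10 hold neither. A match describes the letters only.

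Some genes of the translation pathway outside the ribosome passed, where 2.71% of all tested genes were higher. Of 11 elongation factor genes 1 was higher, Eef1b2, the exchange factor subunit of eEF1 (1203 CPM in KO and 846 CPM in controls, log2 fold change 0.51, adjusted p = 0.0425), and the median was 0.14. Of 36 initiation factor genes 3 were higher, all of them subunits of eIF3, which holds the small subunit during scanning: Eif3i (0.61), Eif3d (0.57) and Eif3k (0.52), and the median was 0.12. DESeq2 called 3 elongation and 4 initiation factor genes higher (6.31% of all genes), and limma voom 4 and 12 (15.4% of all genes). As lower, DESeq2 called 0 and 1 (4.19% of all genes), and limma voom 1 and 1 (12.6% of all genes). The initiation factor genes are longer than the ribosomal protein genes (median longest transcript 2555 bases). Removal of the length and GC trends by the longest transcript gave medians of 0.125 for ribosomal protein genes and 0.122 for initiation factor genes. By the shortest transcript, a fit chosen after seeing the data, the medians were 0.30 and 0.19. Differences between these lists were not tested. Eef1d (0.38) and Eef1a2 (0.34) did not pass. Among 10 other mRNAs of the TOP class, 0 passed by edgeR (2 at an unadjusted p under 0.05, 2 by DESeq2 and 4 by limma voom), with a median of 0.14. They include Naca, which guards nascent chains (0.39), Tpt1 (0.35) and the splicing factor Hnrnpa1 (-0.23).

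The machinery that makes ribosomes showed values near those of all tested genes, of which 2.71% were higher. Of 41 small subunit assembly factors 1 was higher, Imp3, which docks U3 snoRNA on the precursor rRNA (0.58, adjusted p = 0.0258), and the median was -0.01. Emg1 (0.41) and Tsr1 (-0.38) did not pass. Of 43 large subunit assembly factors 0 passed by edgeR (7 at an unadjusted p under 0.05, 4 by DESeq2 and 14 by limma voom), with a median of 0.02, and the 3 with the smallest p were Mrto4 (0.43), Nvl (-0.41) and Nip7 (0.44). Nhp2, of the box H/ACA particles that convert uridine to pseudouridine in rRNA, was higher (0.57, adjusted p = 0.0258), 1 of 7 genes of that list, with Nop10 at 0.29 and Dkc1 at 0.10.

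Of 11 tested genes of RNA polymerase I and its factors, which transcribe rRNA, 0 passed by edgeR (2 at an unadjusted p under 0.05, 1 by DESeq2 and 3 by limma voom). Their median was -0.03, with Polr1c at 0.35, Polr1d at 0.29 and Rrn3 at -0.23. Of 7 chaperones of single ribosomal proteins, 0 passed by edgeR (3 at an unadjusted p under 0.05, 0 by DESeq2 and 4 by limma voom), with a median of 0.26 and with Pdcd2l at 0.40, Bccip at 0.34 and Aamp at 0.35. Of 18 genes of mTORC1 and TOP mRNA control, 0 passed by edgeR (3 at an unadjusted p under 0.05, 1 by DESeq2 and 2 by limma voom), with a median of -0.14. Tsc1, an inhibitor of the pathway, stood at -0.53 (adjusted p = 0.0855), Eif4ebp1 at 0.28 and Akt1s1 at 0.40. Of the 10 Rps6k kinases (median -0.04), 1 was lower, Rps6ka3 (-0.58, edgeR adjusted p = 0.0430), where 1.05% of all tested genes were. Rps6kb1 stood at -0.27 and Rps6ka5 at -0.25. The mTORC1 and Rps6k lists hold long genes, with median longest transcripts of 4531.5 and 4378 bases. With length and GC offsets by the longest transcript, their medians were 0.04 and 0.05, and by the shortest -0.10 and -0.03. In these fits 0 kinases were lower, and 2 of the 18 mTORC1 genes were lower by the shortest transcript. Of all genes, 0.607% were lower by the longest transcript and 3.08% by the shortest.

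The ribosome of mitochondria has its own proteins, encoded in the nucleus under the names Mrpl and Mrps. Of 77 tested, 21 were higher, with a median of 0.34 (2.71% of all genes were higher), and 63 had KO values above all controls (19.9% of all genes). With length and GC offsets by the longest transcript 15 were higher, with a median of 0.126, beside 12 and 0.125 for the cytosolic genes. By the shortest transcript 29 were higher, with a median of 0.23, beside 34 and 0.30 for the cytosolic genes. Of all genes 2.16% and 4.08% were higher in these fits.

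Fold changes followed transcript length across the whole table, and ribosomal protein genes are short. Over 15809 genes with an annotated coding transcript, Spearman's rho between log2 fold change and the longest such transcript was -0.57, across genes that are not independent. Among the 88 ribosomal protein genes it was -0.06. The deviation of each library from the mean correlated with length with a rho of -0.47 in both KO libraries, against 0.46, 0.31 and 0.21 in controls. The median longest transcript was 896.5 bases for the ribosomal protein genes and 3021 bases for all tested genes.

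Within length classes by the longest transcript, the ribosomal protein genes stood out from other genes of their size mainly among the longer ones. Below 500 bases, their median was 0.53 (11 genes), against 0.47 for all genes, and from 500 to 750 bases 0.49 (18 genes), against 0.53. From 750 to 1000 bases the medians were 0.58 (23 genes) and 0.41, from 1000 to 1500 bases 0.48 (22 genes) and 0.29, and from 1500 to 2000 bases 0.57 (7 genes) and 0.16. The longest annotated transcript is not always the main product, and in 18 of the genes it was at least 2 times the shortest. By the shortest coding transcript, the medians below 500 bases were 0.57 (28 genes) and 0.30 for all genes. From 500 to 750 bases they were 0.54 (24 genes) and 0.24. The next classes gave 0.50 (20 genes) and 0.22 from 750 to 1000 bases, and 0.39 (12 genes) and 0.14 from 1000 to 1500. The length measure therefore changed how far the short ribosomal protein genes stood from other short genes.

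**Figure D4:**
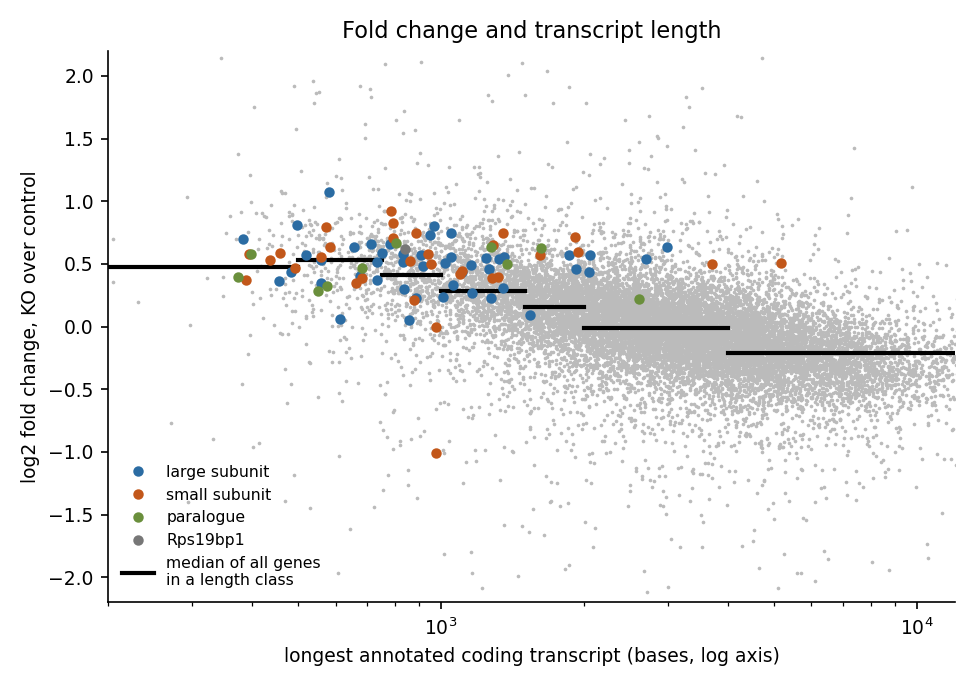
Log2 fold change of KO over control (vertical axis) against the longest annotated coding transcript (bases, horizontal log axis), leaving out genes beyond the axes, with all genes in grey, ribosomal protein genes coloured by class and black lines for the median of all genes in each length class. The black lines are at 0.47 and 0.53 in the 2 shortest classes and lower in each longer class, down to -0.21 in the longest, while the coloured points keep a similar height across lengths.

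When per-library trends on length and GC content were removed, the rise became smaller and its size depended on the transcript used. With the longest transcript the median log2 fold change was 0.13, and 11 of the 12 genes that were higher had a longest transcript of at least 1000 bases. With length alone the median was 0.12. With the shortest transcript, an alternative chosen after seeing the data, 34 were higher and 1 lower, with a median of 0.30 (4.08% of all genes higher, 3.08% lower). Rpl41, Rps3, Rps9, Rps20, Rpl22, Rpsa, Rpl9 and Rpl36al passed as higher without offsets and in both length and GC fits, and Rps20, Rpl22, Rpsa and Rpl9 are named because of that result. For Rpl41 the log2 fold change was 0.52 with the longest and 0.72 with the shortest transcript. For Rps3a1, lower in each of these fits, it was -1.33 and -1.11.

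**Figure D5:**
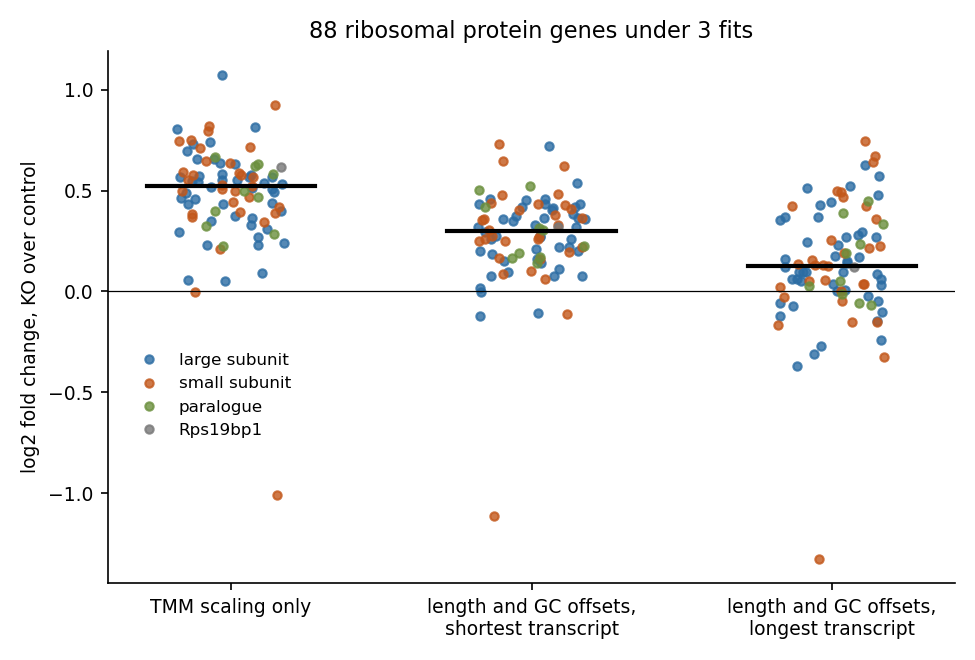
Log2 fold change of KO over control (vertical axis) of the 88 ribosomal protein genes in 3 fits, with black lines at the medians of 0.52 without offsets, 0.30 with length and GC offsets by the shortest transcript, and 0.13 with those by the longest. Rps3a1 is the lowest point in each fit, at -1.01, -1.11 and -1.33.

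Some ribosomal protein genes carry snoRNA genes inside their introns. Among 24 such hosts 8 were higher and 1 lower, with a median log2 fold change of 0.45, and among the 64 other tested genes 31 were higher, with a median of 0.54. Of all tested genes, 2.71% were higher and 1.05% lower. The median longest transcript was 1053 bases for the hosts and 835.5 bases for the others. With length and GC offsets by the longest transcript the medians were 0.13 for the hosts and 0.12 for the others, and by the shortest 0.26 and 0.30. Whether hosts and other genes differ was not tested. Of the 26 tested snoRNA genes inside these hosts, 0 passed by edgeR (0 at an unadjusted p under 0.05, 0 by DESeq2 and 1 by limma voom), and their median was -0.02. The 5 of them with an annotated transcript had a median length of 83 bases. Whether the snoRNA genes followed their hosts was not tested.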

How the data were processed

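Per the labels' protocols, total RNA went into the libraries. The authors deposited raw counts, whole numbers of reads per Entrez gene and not normalised. Per the submitters' processing notes, the tools were FastQC, HISAT2 2.0.4 and DESeq2 1.16.1, with GRCm38 (mm10). The sources used here do not state the counting program, strand setting, treatment of shared reads, or rRNA removal or poly(A) selection.

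Symbols came from RefSeq (25275 of 27179 identifiers) and transcript lengths from GENCODE M21 basic (21572). Genes kept by filterByExpr (17472) were scaled by TMM (0.936 to 1.07) and tested with edgeR 4.0.16 in R 4.3.3 (robust quasi-likelihood F test, Benjamini-Hochberg, threshold 0.05, biological coefficient of variation 0.154). The SE is the log2 fold change divided by the root of F. The script was tested on simulated data. Offsets were smooth per-library trends fitted with mgcv 1.9.3 over 15809 genes. Other fits used DESeq2 1.42.0, limma 3.58.1, other scalings and filters, a fold limit of 1.2, the replicate number as a block, and leaving out each library, where the remaining KO library borrows the spread of the controls. Libraries of a group differed beyond sampling noise (chi-square per degree of freedom 23.3 to 79.4).

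Named in the text were genes by rule: Cd1d1, those that fell, the 8 largest rises and 3 smallest changes per subunit, paralogues, stalk and 5S genes, and 3 per list by p. Some genes that the rule names are not reported here. Others are described as chosen later. The members and lists were chosen with earlier results of these data known, and Rpl32l, Rpl37rt and Rps23rg1 were classed as paralogues after the table was seen.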

Additional observations from a re-analysis of the deposited data

How the results depend on the processing

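The median log2 fold change of the ribosomal protein genes was positive, and Rps3a1 had a negative one, in every fit run. The counts of genes that passed moved more. Against 39 ribosomal protein genes higher (median 0.52) and 657 genes passing in all, library size alone gave 22 (median 0.37) and 1242 genes. It moved the median of all genes to -0.16, from which the ribosomal protein genes still differed by 0.54, and split all calls into 268 higher and 974 lower in KO, against 474 and 183. DESeq2 gave 66 and 1834 genes, limma voom 73 and 4888, and no filter on low counts 1036 genes in all. A limit of 1.2-fold left 1 higher and 16 genes in all.

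Offsets gave 12 higher (median 0.13) with length and GC, 0 (median 0.12, 5 genes in all) with length alone, and a median of 0.30 with 1132 genes in all by the shortest transcript. This last fit, and one adding pseudogene counts to their parents (39 higher), were chosen after seeing the data. Leaving out 1 library gave 0 to 63 higher, 0 to 1 lower, medians of 0.45 to 0.55, and 0 to 3277 genes in all. Replicate numbers did not pair the libraries (r of deviations 0.016 and 0.064). The replicate block gave 48 higher and 2037 genes in all, and with length and GC offsets 15 higher, 3 lower and a median of 0.10. Control replicate 3 has no KO library of the same number, so in the block fits it adds nothing to the difference between the groups. The median with the block was 0.49, as it was without control replicate 3.

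Per 100 counts outside these genes and the mitochondrial ones, the share was 14.5 in KO and 10.5 in controls. With the replicate block and length and GC offsets the log2 fold change of Rpl36 was -0.062, against 0.70 in the main fit. With the same offsets and no block it was 0.05. The cause was not tested. Of 1424 values of single genes under these alternatives, 1127 kept direction and side of the threshold, 173 lost the threshold and 123 gained it. With 2 KO libraries, small differences can be missed.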

Other observations

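Rows of processed pseudogenes named after ribosomal proteins were left out of the count of genes. They took 0.0549% ± 0.00398 of counts in KO (SD, n = 2) and 0.0402% ± 0.00197 in controls (SD, n = 3). Of 21 tested rows, 5 were higher in KO (edgeR, adjusted p under 0.05; 2.71% of all genes were higher), and all 21 had a positive log2 fold change, with a median of 0.68. Rpl34-ps1, a copy of Rpl34, had 147 and 126 CPM in KO, against 88.3, 78.7 and 77.7 CPM in controls, a log2 fold change of 0.74, beside 0.66 for Rpl34 itself. This row was chosen after its values were seen, and the sources used here do not state how reads shared with the parent genes were counted.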
